A study of Sus scrofa with 15 samples.

Results

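The genes described here form the first steps of the response to bacterial lipopolysaccharide (LPS) in the liver: LBP, CD14 and LY96, which hand LPS to its receptor TLR4, the adaptors MYD88, TIRAP and TICAM1, and the kinases IRAK1, IRAK2, IRAK3 and IRAK4. These 10 genes were chosen by name, by a rule that uses no measured value, although earlier results of these data were known at that time. All 10 have a row among the 31908 Ensembl pig genes of the count table. The study compared male Duroc x Large White x Landrace piglets in their growing stage, 6 in the control (CON) group, which were injected with sterile saline, and 6 in the LPS group, which were injected intraperitoneally with LPS at 80 μg/kg. Livers were taken 4 h after the injection. RNA-seq was run on the input fraction of an m6A immunoprecipitation, that is, fragmented polyadenylated RNA set aside before the antibody was added, with 3 libraries per group, called CON 1 to 3 and LPS 1 to 3 after their replicate numbers. The labels give no genotype. The labels do not say which piglet gave which library, so p-values measure the spread between these libraries, which may be partly technical. Whole liver holds hepatocytes, Kupffer cells, endothelial cells and blood cells together, and in such RNA fewer cells of a type and less RNA per cell cannot be told apart.

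LPS in blood is bound by LBP, a plasma protein that hepatocytes secrete in the acute-phase response, and is passed to CD14, a surface or soluble protein that is best known on monocytes and macrophages. CD14 loads LPS onto LY96 (also called MD-2), which sits on the outer part of TLR4. Inside the cell, TIRAP bridges the receptor to MYD88, which assembles with IRAK4, IRAK1 and IRAK2 into a signaling complex that leads to NF-κB, while TICAM1 (TRIF) carries a separate branch that leads to interferon genes. IRAK3 (IRAK-M) lacks the activity of a working kinase and is known as a brake on this complex.

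In the deposited table the genes lie on several chromosomes, and which genome build these coordinates follow was not given in the sources used here. LBP (ENSSSCG00000028758) spans chromosome 17 from 41393818 to 41429551 on the plus strand, in 18 merged exons. CD14 (ENSSSCG00000014369) spans chromosome 2 from 142346358 to 142349581 on the minus strand, in 2 exons. LY96 (ENSSSCG00000006175) lies on chromosome 4 from 61926054 to 61950697, minus strand, with 5 exons of only 674 bases in all. The adaptors are MYD88 (ENSSSCG00000011251, chromosome 13 from 22964071 to 22983109, plus strand), TIRAP (ENSSSCG00000022413, chromosome 9 from 53375642 to 53394165, plus strand) and TICAM1 (ENSSSCG00000024771, chromosome 2 from 74004550 to 74021094, plus strand). The kinases are IRAK4 (ENSSSCG00000000799, chromosome 5 from 74834600 to 74882163, plus strand), IRAK1 (ENSSSCG00000012795, chromosome X from 124717612 to 124724860, minus strand), IRAK2 (ENSSSCG00000011570, chromosome 13 from 66350606 to 66416832, plus strand) and IRAK3 (ENSSSCG00000000475, chromosome 5 from 30525948 to 30609922, plus strand).

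Of the 10 genes, 7 overlap no other listed gene. MYD88 is the gene whose counts are the least certain, because 2441 of the 7538 exonic bases of its row are also exonic in ACAA1, a peroxisomal thiolase gene on the opposite strand, and a further 145 in DLEC1 on the same strand. ACAA1 had 3650, 2358 and 4125 reads across CON 1 to 3 and 504, 1420 and 2711 across LPS 1 to 3, and the strand setting of the counting was not given in the sources used here. IRAK4 shares 279 of its 6337 exonic bases with TWF1 on the opposite strand. GHRL lies within the span of IRAK2 on the opposite strand and shares 0 exonic bases with it.

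The CON libraries held 5927348 to 10351491 counted reads and the LPS libraries 4348478 to 19967417. The hepatocyte gene ALB was abundant in every library (12381 to 38011 CPM, that is, reads scaled to a common library size, here by the TMM method), in keeping with liver tissue. LPS 2 stood nearer to the CON libraries (Pearson r of 0.928 to 0.949 for log2 CPM across genes, which are not independent replicates) than LPS 1 and LPS 3 did (0.844 to 0.906). LPS 3 was the deepest library and had a TMM factor of 0.735, against 0.979 to 1.11 in the others, so that its CPM values depend most on the scaling.

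Compared per exonic length, in TPM, which divides reads by length before scaling to a common total, the genes of the pathway differed widely in level. CD14 and LBP, the extracellular partners, had CON means of 450 ± 140 and 319 ± 133 TPM (mean ± SD, n = 3), above 99.5% and 99.3% of all listed genes. Their CON values overlapped, CD14 being above LBP in 2 of 3 CON libraries and in 3 of 3 LPS libraries. IRAK1 (30.9 ± 6.89 TPM) and TICAM1 (28.2 ± 4.48 TPM) followed, below LBP in every CON library, and their CON values overlapped with each other. MYD88 (8.29 ± 1.00 TPM) and LY96 (8.01 ± 2.25 TPM) overlapped as well, and the order of these neighbours was not the same in all CON libraries. TIRAP had 4.38 ± 1.39 TPM, IRAK2 3.70 ± 0.976, IRAK3 2.62 ± 0.942 and IRAK4 1.93 ± 0.550, and each overlapped with its neighbour in this order. IRAK4, the kinase at the head of the complex, thus had the lowest CON mean of the 10 genes, and IRAK1 the highest of the 4 kinases. The TPM of MYD88 uses a length that includes the bases shared with ACAA1 and is uncertain for that reason.

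**Figure D1:**
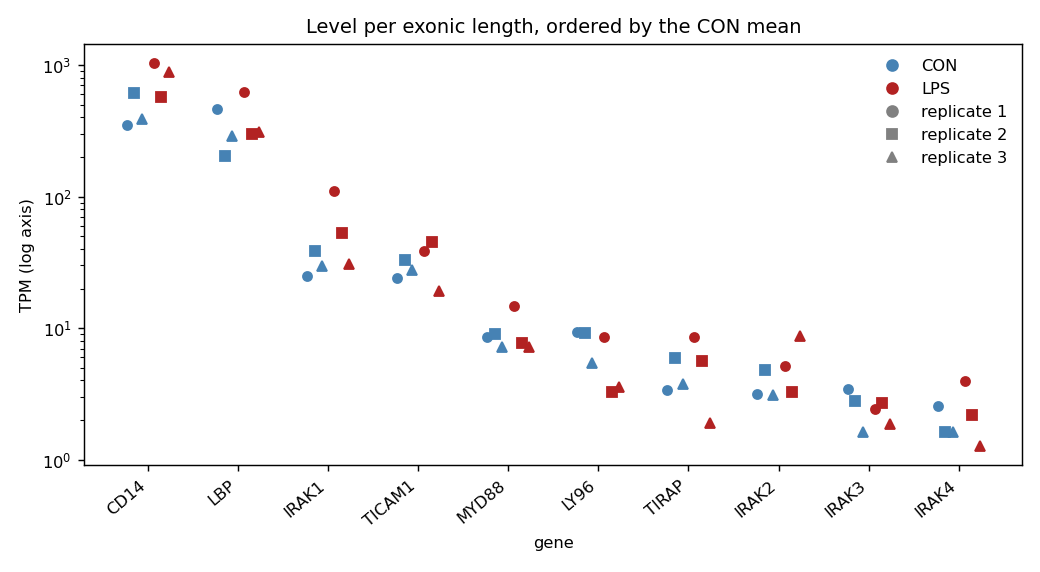
Level of each gene per exonic length in TPM (vertical axis, log scale) in each library, with genes ordered by their CON mean; blue points are CON, red points LPS, and the marker shape gives the replicate. CD14 and LBP lie between 204 and 1035 TPM in every library, far above the other 8 genes.

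A gene was called where its Benjamini-Hochberg adjusted p in edgeR's quasi-likelihood test was below 0.05 with a fold above 1.5. Of the 12774 genes kept by the filter on low counts, 7 (0.0548%) were called as higher in the LPS group and 0 (0%) as lower. All 10 genes of the pathway passed that filter and 0 of them were called, with adjusted p from 0.330 to 0.981. DESeq2 and limma-voom also called 0 of the 10, against 2.81% and 0.0157% of all genes they tested. At an unadjusted p below 0.05 the edgeR test gave 2 of the 10 genes, CD14 and IRAK1, both higher in the LPS group, against 12.5% of all tested genes in either direction, 6.18% in this direction and 6.33% in the other. Of the 10 log2 fold changes, 8 were above 0 and 2 below, with a median of 0.29, whereas the median over all tested genes was 0.01.

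**Figure D2:**
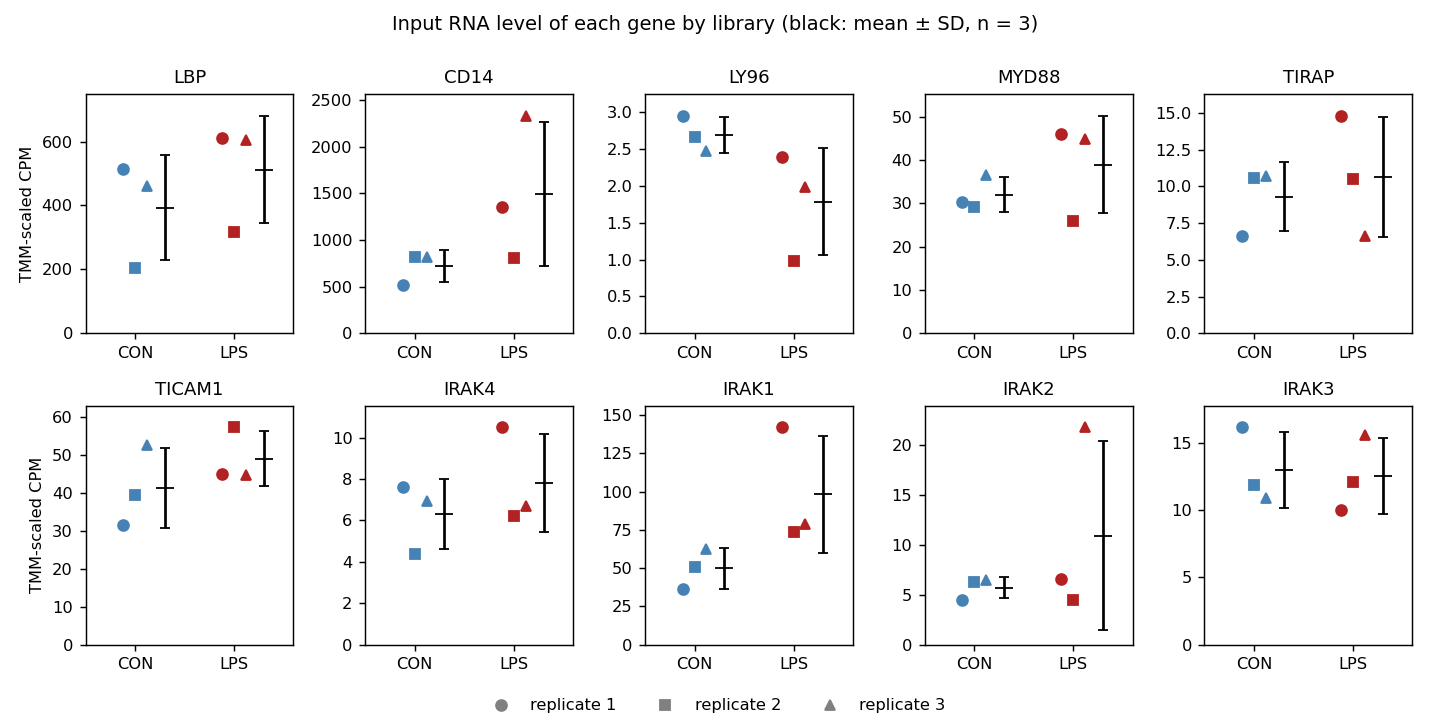
TMM-scaled CPM (vertical axes, each starting at 0) of the 10 genes in the 3 CON and 3 LPS libraries; marker shapes give the replicate, and black bars the mean ± SD (n = 3). IRAK1 is the gene whose 3 LPS points all lie above its CON points, LY96 the gene whose 3 LPS points all lie below them, and CD14 and IRAK2 have their highest point in LPS 3.

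CD14 had the highest CON mean in TPM of the recognition partners and, with IRAK1 and IRAK2, a log2 fold change near 1. It measured 518, 818 and 821 CPM across CON 1 to 3, and 1354, 805 and 2328 CPM across LPS 1 to 3. LPS 1 and LPS 3 were thus above every CON library, while LPS 2 lay within the CON range. The group means were 719 ± 174 and 1496 ± 771 CPM (mean ± SD, n = 3 per group), with an LPS to CON log2 fold change of 1.06 (SE 0.43, 95% interval 0.10 to 2.02, edgeR adjusted p = 0.359). With the libraries scaled to total counts, CD14 in LPS 2 was at 897 CPM against a CON maximum of 886, so that the groups no longer overlapped and the log2 fold change was 0.84. Leaving out LPS 3 brought the log2 fold change to 0.60 (edgeR adjusted p = 0.580), and leaving out LPS 2 brought it to 1.36 (edgeR adjusted p = 0.0631). CD14 was no longer at an unadjusted p below 0.05 when LPS 3, CON 1, CON 2 or CON 3 was left out, with log2 fold changes of 0.60, 0.86, 1.16 and 1.19.

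Markers of the blood and tissue cells that carry CD14 moved in different ways in the same libraries. Of 18 neutrophil markers 11 had a row and 8 were tested, 7 of them above 0 and 1 below. The 7 include LTF and S100A12, which passed the filter on low counts only through the LPS group, where they are high. The count, and the values of S100A12 given below, are therefore no support for a difference. The summed level of the list was 23.6 to 36.4 CPM in the CON libraries and 180, 93.7 and 331 CPM across LPS 1 to 3. The granulocyte receptor CSF3R, the first of the list in mean CPM, was at 5.90 to 16.2 CPM in the CON group and at 99.0, 46.8 and 100 CPM across LPS 1 to 3. The calcium-binding S100A12, the next in level, was at 0.781 to 5.27 CPM in the CON group and at 45.8, 18.3 and 153 CPM across LPS 1 to 3. Of 13 Kupffer cell or macrophage markers 11 had a row, and 10 of these were below 0 and 1 above, at a median of -0.48 on the log2 scale, and the list summed to 1997 to 3248 CPM in the CON and 1378 to 2303 CPM in the LPS libraries. The complement gene C1QB, the first of this list in mean CPM, was at 514 to 1090 CPM in the CON and 401 to 794 CPM in the LPS libraries, and C1QC at 437 to 653 and 272 to 518 CPM. Of 8 monocyte markers 4 had a row, LYZ was listed at 0 in every library, and the summed level of the list was 11.3 to 11.9 CPM in the CON and 8.74 to 12.4 CPM in the LPS libraries. The part of these cells in the CD14 values was not tested.

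LBP, the plasma carrier of LPS, was second to CD14 in TPM and had a smaller fold change. It measured 514, 205 and 462 CPM across CON 1 to 3, and 612, 318 and 606 CPM across LPS 1 to 3. LPS 1 and LPS 3 were above every CON library, and replicate 2 had the lowest value of each group. With total counts LPS 3 was at 446 CPM, below the 559 and 453 CPM of CON 1 and CON 3. The log2 fold change was 0.38 (SE 0.42, 95% interval -0.57 to 1.33, edgeR adjusted p = 0.754), so that a change of up to 2.51-fold upward was within the interval. The log2 fold change ranged from 0.07 (without CON 2) to 0.63 (without LPS 2) when 1 library was left out, and was 0.23 with total counts.

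LY96 was the recognition partner with the fewest reads and the one with a negative fold change. It had 33, 17 and 25 reads across CON 1 to 3 and 11, 6 and 29 reads across LPS 1 to 3. Scaled by TMM these are 2.95, 2.66 and 2.47 CPM in the CON group and 2.40, 0.982 and 1.98 CPM in the LPS group, so that every LPS library lay below every CON library. The margin was narrow, and under RLE factors or scaling to total counts LPS 1 lay within the CON range. With 6 reads in LPS 2, LY96 did not meet the filter on low counts in the LPS group alone. It passed only through the CON group, where it is high, so its lack of overlap and its fold change are no support for a difference. The log2 fold change was -0.59 (SE 0.49, 95% interval -1.70 to 0.51, edgeR adjusted p = 0.661), and it was -0.31 without LPS 2.

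The 3 adaptors had log2 fold changes between 0.18 and 0.28, and their groups overlapped. MYD88, the adaptor shared by most Toll-like receptors and the IL-1 receptor family, measured 30.3, 29.2 and 36.6 CPM across CON 1 to 3 and 46.0, 26.0 and 44.9 CPM across LPS 1 to 3. Its lowest value was that of LPS 2 and its 2 highest were those of LPS 1 and LPS 3, but with total counts LPS 3 was at 33.0 CPM, below the 35.8 CPM of CON 3. The log2 fold change was 0.28 (SE 0.32, 95% interval -0.43 to 1.00, edgeR adjusted p = 0.758), 0.14 with total counts, and from 0.16 (without LPS 1) to 0.51 (without LPS 2) with 1 library left out. TICAM1, the adaptor of the interferon branch, measured 31.6, 39.5 and 52.5 CPM across CON 1 to 3 and 44.9, 57.3 and 44.8 CPM across LPS 1 to 3, with LPS 2 above every CON library. With total counts LPS 3 was at 32.9 CPM, below every CON library. Its log2 fold change was 0.25 (SE 0.31, 95% interval -0.44 to 0.94, edgeR adjusted p = 0.776), and from 0.09 (without CON 1) to 0.48 (without CON 3) with 1 library left out. TIRAP, the bridging adaptor, measured 6.61, 10.6 and 10.7 CPM across CON 1 to 3 and 14.8, 10.5 and 6.62 CPM across LPS 1 to 3, with an LPS to CON log2 fold change of 0.18 (SE 0.40, 95% interval -0.72 to 1.08, edgeR adjusted p = 0.889). The TIRAP values of the LPS libraries enclosed almost the whole CON range, and without CON 1 or LPS 1 the log2 fold change was -0.02 and -0.12.

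IRAK1, the IRAK kinase with the highest TPM here, was the other gene at an unadjusted p below 0.05. It measured 36.0, 50.9 and 62.4 CPM across CON 1 to 3 and 142, 73.5 and 78.9 CPM across LPS 1 to 3. Every LPS library lay above every CON library, LPS 2 included. The means were 49.8 ± 13.2 and 98.2 ± 38.2 CPM (mean ± SD, n = 3 per group), with an LPS to CON log2 fold change of 0.98 (SE 0.37, 95% interval 0.15 to 1.80, edgeR adjusted p = 0.330). With scaling to total counts LPS 3 was at 58.0 CPM, below the 61.1 CPM of CON 3 (edgeR adjusted p = 0.463). IRAK1 was no longer at an unadjusted p below 0.05 with that scaling, nor when LPS 1, CON 1 or CON 2 was left out, with log2 fold changes of 0.63, 0.79 and 0.99.

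IRAK2, the kinase that sustains the signal downstream of IRAK4, had a fold change of nearly the same size that rested on LPS 3. It measured 4.47, 6.25 and 6.43 CPM across CON 1 to 3 and 6.54, 4.42 and 21.8 CPM across LPS 1 to 3, from 320 reads in LPS 3 and 27 to 65 in the other libraries. LPS 3 stood far above all others, and LPS 1 and LPS 2 lay just above and just below the CON range. The log2 fold change was 0.97 (SE 0.57, 95% interval -0.30 to 2.24, edgeR adjusted p = 0.520), it was 0.67 with total counts, and without LPS 3 it was -0.05.

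IRAK4, which starts the kinase cascade, measured 7.60, 4.37 and 6.92 CPM across CON 1 to 3 and 10.5, 6.22 and 6.69 CPM across LPS 1 to 3, with an LPS to CON log2 fold change of 0.29 (SE 0.39, 95% interval -0.59 to 1.16, edgeR adjusted p = 0.795). Without LPS 1 or CON 2 the IRAK4 log2 fold change was 0.04 and 0.09, and with total counts it was 0.18. IRAK3, the inhibitory member, measured 16.2, 11.9 and 10.9 CPM across CON 1 to 3 and 10, 12.1 and 15.6 CPM across LPS 1 to 3. Its group means of 13.0 ± 2.82 and 12.6 ± 2.83 CPM (mean ± SD, n = 3 per group) differed by less than the spread between replicates, with an LPS to CON log2 fold change of -0.04 (SE 0.34, edgeR adjusted p = 0.981) that was above 0 under RLE factors and in DESeq2. The 95% interval of -0.80 to 0.72 still allows a change of up to 1.65-fold upward or down to 0.575 of the CON level.

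**Figure D3:**
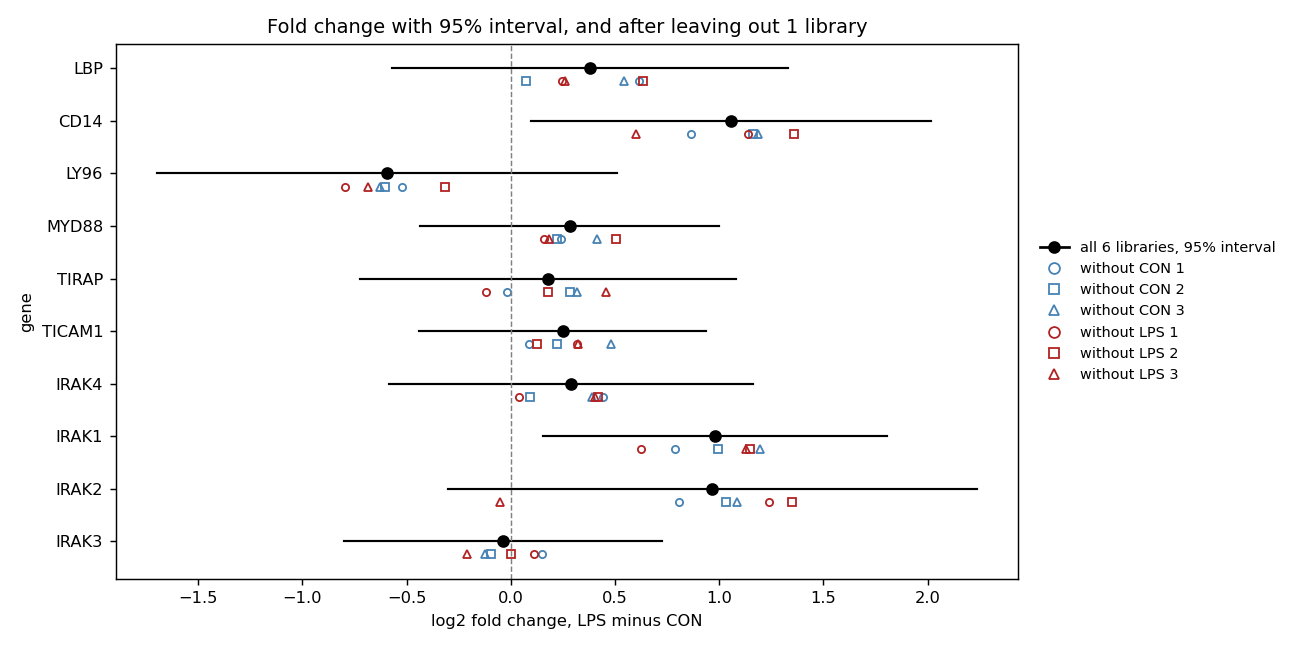
Log2 fold change of each gene, LPS minus CON (horizontal axis), from edgeR with all 6 libraries (black point) and its 95% interval (line); open symbols below each line give the value after leaving out 1 library, with the colour for its group and the shape for its replicate. The intervals of CD14 and IRAK1 lie above 0, and IRAK2 moves from 0.97 to -0.05 without LPS 3.

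The 3 LPS libraries did not share 1 pattern over the 10 genes. In LPS 1, 7 genes were above all CON libraries and 2 below, in LPS 3 these counts were 5 and 1, and in LPS 2 they were 2 (TICAM1 and IRAK1) and 3 (LY96, MYD88 and IRAK2). The shares of all tested genes that lay outside the CON range in each LPS library were not computed. The counts are therefore not read as particular to these 10 genes. They also depended on the scaling, most of all in LPS 3. With total counts LPS 3 was above all CON libraries for 2 genes (CD14 and IRAK2) and below them for 3 (LY96, TIRAP and TICAM1), LPS 1 for 7 and 1, and LPS 2 for 4 and 2. Over the 10 genes, the median log2 difference from the CON mean was 0.60, -0.03 and 0.38 across LPS 1 to 3, and 0.61, 0.05 and -0.12 with total counts. Among the LPS libraries replicate 1 held the highest value of 6 genes (LBP, LY96, MYD88, TIRAP, IRAK4 and IRAK1), replicate 3 that of CD14, IRAK2 and IRAK3, and replicate 2 the lowest value of 7 genes. With total counts replicate 1 still held the highest value of these 6 genes, replicate 3 that of CD14 and IRAK2, and replicate 2 the lowest value of 5. The groups did not overlap for 1 gene higher in the LPS group (IRAK1) and 1 gene lower (LY96), against 6.52% and 9.8% of all tested genes. Without LPS 2 they did not overlap for 5 genes higher (LBP, CD14, MYD88, IRAK1 and IRAK2) and 1 lower (LY96), but this held for 18.9% and 22.7% of all tested genes as well. LY96 passed the filter on low counts only through the CON group, where it is high, so its place in both counts is no support for a difference. The edgeR test without LPS 2 gave 3 of the 10 genes at an unadjusted p below 0.05 (CD14, IRAK1 and IRAK2), against 11.3% of all tested genes in that direction, and called 0 of the 10, against 7.2% of all tested genes.

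Ratios of 2 genes within a library hardly depend on how libraries are scaled to each other. The log2 ratios of CPM + 0.5 of 6 pairs of partners or counterparts were compared with an exact two-sided permutation test. This test cannot give a p below 0.1 with 3 libraries per group. Ratios printed without a log2 are of CPM, with no 0.5 added. LY96 to TLR4, the 2 chains of the receptor complex, had the largest difference with all libraries. The ratio was 0.292, 0.405 and 0.207 across CON 1 to 3 and 0.216, 0.0789 and 0.137 across LPS 1 to 3, so that LPS 1 lay just within the CON range. The difference of the log2 ratios was -0.96 (exact permutation p = 0.2, adjusted over the 6 ratios 0.840). CD14 to TLR4 was 51.3, 125 and 68.7 in the CON and 122, 64.7 and 161 across LPS 1 to 3, a log2 difference of 0.53 (exact permutation p = 0.4) that ranged from 0.24 (without LPS 3) to 0.90 (without LPS 2). LBP to CD14 ranged from 0.251 to 0.992 in the CON and from 0.260 to 0.452 in the LPS libraries, a log2 difference of -0.53 (exact permutation p = 0.5). This last difference was -0.07 without CON 1 and -1.05 without CON 2.

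The ratio of TICAM1 to MYD88, which sets the interferon branch against the NF-κB branch, was 1.04, 1.35 and 1.44 across CON 1 to 3 and 0.976, 2.20 and 0.998 across LPS 1 to 3. LPS 2 was above and the other LPS libraries were below all CON libraries, and the log2 difference was 0.03 (exact permutation p = 1). The ratio of IRAK2 to IRAK1 was 0.103 to 0.124 in the CON group and 0.0460, 0.0601 and 0.277 across LPS 1 to 3, a log2 difference of -0.36 (exact permutation p = 0.7) that was -1.13 without LPS 3 and 0.13 without LPS 1. This ratio was tight in the CON libraries, with a log2 standard deviation of 0.16 against 1.34 in the LPS libraries, where replicates 1 and 2 lay below the CON values and replicate 3 above them. IRAK3 to IRAK4, the brake against the leading kinase, was 1.57 to 2.71 in the CON and 0.958, 1.95 and 2.34 across LPS 1 to 3, a log2 difference of -0.33 (exact permutation p = 0.6). For all 6 ratios the groups overlapped.

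**Figure D4:**
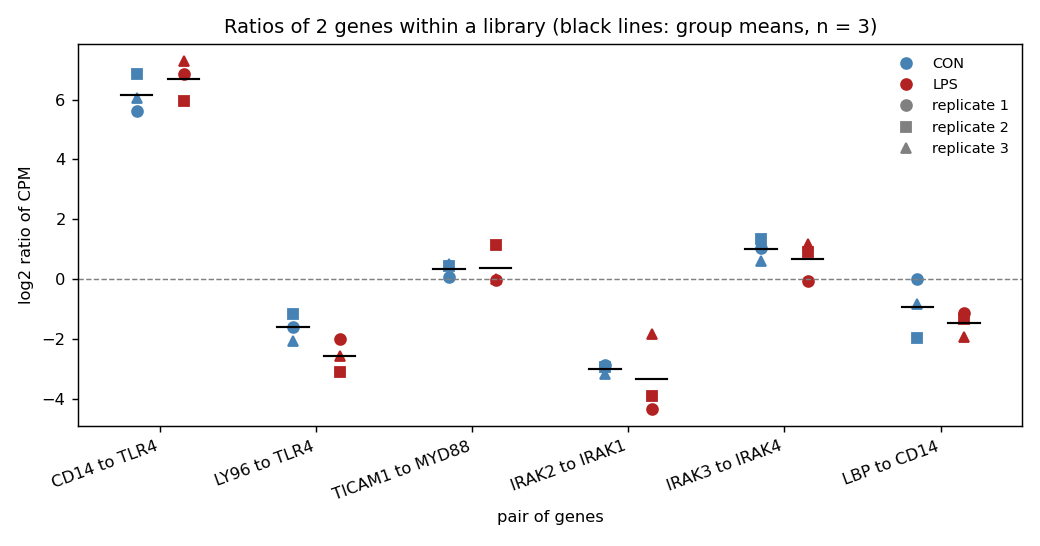
Log2 ratio of the CPM + 0.5 of 2 genes in each library (vertical axis) for 6 pairs of genes. Blue points are CON, red points LPS, marker shapes give the replicate and black lines the group means (n = 3). The IRAK2 to IRAK1 points are close together in the CON group and spread over more than the CON range on both sides in the LPS group.

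Of 71 other genes of the pathway, taken from lists written from general knowledge, 63 had a row and 55 were tested, with 34 log2 fold changes above 0 and 21 below and a median of 0.29. The edgeR test called 0 of the 55. At an unadjusted p below 0.05 there were 6 higher and 3 lower genes, against 6.18% and 6.33% of all tested genes. The 6 include LTF, which passed the filter on low counts only through the LPS group, where it is high. The 3 lower genes include CD180, which passed it only through the CON group, where it is high. Neither gene is support for a difference. The count of higher genes was 2 without CON 1, 3 without CON 2 or LPS 3, and 15 without LPS 2, and the count of lower genes was 7 without LPS 2. TLR4 itself measured 10.1, 6.56 and 12.0 CPM across CON 1 to 3 and 11.1, 12.4 and 14.5 CPM across LPS 1 to 3, and its groups overlapped. Of the 12 tested genes downstream of the IRAK kinases and the 8 of the TICAM1 branch, 0 had an unadjusted edgeR p below 0.05, and their median log2 fold changes were 0.22 and 0.35.

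Of 6 tested genes of the receptor and its chaperones, 2 were lower at an unadjusted edgeR p below 0.05, against 6.33% of all tested genes. These were CD180 and LY86, which form a TLR4-like receptor pair on B cells and macrophages that is known to restrain TLR4. CD180 measured 11, 3.44 and 7.81 CPM across CON 1 to 3 and 2.62, 1.47 and 1.57 CPM across LPS 1 to 3, with an LPS to CON log2 fold change of -2.01 (SE 0.52, edgeR adjusted p = 0.202). LY86, the partner of CD180 as LY96 is of TLR4, measured 17.9, 13.9 and 23.6 CPM across CON 1 to 3 and 3.27, 7.85 and 8.60 CPM across LPS 1 to 3 (log2 fold change -1.47, SE 0.42, edgeR adjusted p = 0.221). For both genes every LPS library, replicate 2 included, lay below every CON library, as held for 9.8% of all tested genes. With 12, 9 and 23 reads across LPS 1 to 3, CD180 did not meet the filter on low counts in the LPS group alone. It passed only through the CON group, where it is high. The place of CD180 in these counts and its fold change are therefore no support for a difference. HSP90B1, also of the receptor and its chaperones, had a positive log2 fold change of 0.66 (95% interval -0.12 to 1.44, edgeR adjusted p = 0.474). It had 1413, 707 and 986 CPM across CON 1 to 3 and 1817, 1617 and 1481 CPM across LPS 1 to 3. HSP90B1 is named here after its values were seen. The 6 B or plasma cell markers had a summed level of 18.7 to 69.6 CPM in the CON and 11.8 to 27.6 CPM in the LPS libraries, with 4 of 5 tested below 0, and the macrophage markers are given above. The part of these cells in the values of CD180 and LY86 was not tested.

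Among the proteins that bind, take up or inactivate LPS, 2 of 6 tested genes were higher and 1 lower at an unadjusted p below 0.05, against 6.18% and 6.33% of all tested genes. LTF, the iron-binding lactoferrin of neutrophil granules, was at 0 to 0.989 CPM across CON 1 to 3 and 1.96, 1.31 and 8.60 CPM across LPS 1 to 3, with an LPS to CON log2 fold change of 3.16 (edgeR adjusted p = 0.247), and it is also a marker of the neutrophil list. With 3, 0 and 10 reads across CON 1 to 3 against 9, 8 and 126 across LPS 1 to 3, LTF passed the filter on low counts only through the LPS group, where it is high, so its place in this count and its fold change are no support for a difference. ALPL, the alkaline phosphatase that can remove phosphates from LPS, was at 80.9, 55.0 and 97.0 CPM across CON 1 to 3 and 396, 77.1 and 158 CPM across LPS 1 to 3 (log2 fold change 1.44, edgeR adjusted p = 0.333). MSR1, a macrophage scavenger receptor, was at 10.1 to 15.6 CPM across CON 1 to 3 and 1.53, 9.16 and 3.28 CPM across LPS 1 to 3 (log2 fold change -1.38, edgeR adjusted p = 0.364).

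Among genes that restrain the pathway, 3 of 13 tested were higher at an unadjusted p below 0.05, against 6.18% of all tested genes. DUSP1, a phosphatase of MAP kinases, had an LPS to CON log2 fold change of 2.45 (edgeR adjusted p = 0.338), with 94.6, 20.5 and 533 CPM across LPS 1 to 3 against 35.6 to 46.7 in the CON libraries. SOCS1, a cytokine signaling suppressor, had 81.3, 9 and 129 CPM across LPS 1 to 3 against 15.2 to 27.7 (log2 fold change 1.83, edgeR adjusted p = 0.364). In DUSP1 and SOCS1 LPS 2 lay below every CON library. TNIP1, which binds the ubiquitin-editing enzyme TNFAIP3, had 286, 136 and 440 CPM against 92.5 to 124, so that every LPS library was above the CON libraries (log2 fold change 1.34, edgeR adjusted p = 0.257). Among receptors that also use MYD88, TLR2 was the 1 of 10 tested genes higher at an unadjusted edgeR p below 0.05, against 6.18% of all tested genes. Its log2 fold change was 1.36, with 50.1, 23.4 and 82.2 CPM across LPS 1 to 3 against 17.4 to 23.7 in the CON libraries.

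Without LPS 2, edgeR called 7 of 56 tested pathway genes higher (LTF, ALPL, TLR2, SOCS1, DUSP1, TNIP1 and IRF7) and 2 lower (MSR1 and TLR8), against 3.76% and 3.45% of all tested genes. LTF passed the filter on low counts only through the LPS group, where it is high. TLR8, with 3 and 6 reads in LPS 1 and LPS 3, passed it only through the CON group, where it is high. Neither call is support for a difference, and the library left out was the LPS library nearest to the CON libraries. IRF7 and TLR8 are named here after their values were seen. In the same fit the edgeR adjusted p was 0.0631 for CD14, 0.0916 for IRAK1 and 0.124 for IRAK2, the lowest of the 10 recognition partners, adaptors and IRAK kinases.

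**Figure D5:**
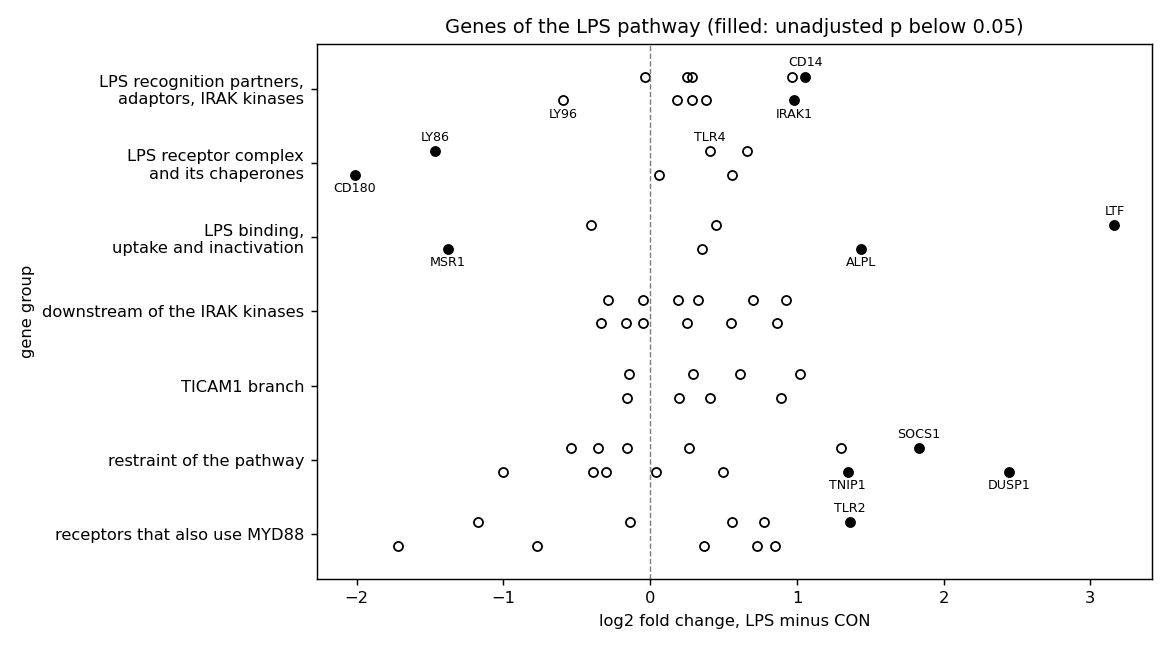
Log2 fold change, LPS minus CON (horizontal axis), of each tested gene by its group in the pathway; filled points have an unadjusted edgeR p below 0.05, and points are set off vertically only to keep them apart. The named genes range from CD180 at -2.01 to LTF at 3.16, whereas the 10 genes in the top line lie between -0.59 and 1.06.

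Profiles over the 6 libraries were compared among the 10756 tested genes with a symbol by the root mean square difference of log2 CPM, each gene centred on its CON mean. The nearest genes are picked for likeness over these same libraries, so a shared order of libraries follows from the choice. The nearest to CD14 were POU2F2, a transcription factor of lymphoid and myeloid cells (difference 0.0879, with 7.63, 4.42 and 12.7 CPM across LPS 1 to 3), PPARD, a nuclear receptor of lipid metabolism (0.116), and POMGNT2, an enzyme of protein glycosylation (0.118). In all 3, as in CD14, LPS 3 was highest. LPS 2 was within the CON range for PPARD and POMGNT2, as for CD14, and just above the CON maximum of 4.37 CPM for POU2F2. The nearest to IRAK1 were LETM1, a protein of the inner mitochondrial membrane (difference 0.105, with 339, 190 and 164 CPM across LPS 1 to 3), NADK, which makes NADP (0.121), and LRRC8A, a subunit of the volume-regulated anion channel (0.129). In these genes LPS 1 was highest and every LPS library was above every CON library, as in IRAK1, although with total counts LPS 3 lay within the CON range for LETM1 and NADK. The 2 genes of the pathway with an unadjusted p below 0.05 therefore differed in which LPS library held their highest value.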

How the data were processed

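The authors deposited raw read counts, as whole numbers without normalization, for 31908 Ensembl pig genes in 6 input libraries. The submitters' processing notes name cutadapt 1.9.3, HISAT2 and the builds galGal6 and hg38, neither of which is a pig build. The counting program, the pig build, and the treatment of strand and of reads mapping to several genes were not given in the sources used here. The labels list 2 sequencing entries for each of CON replicates 1 and 2, for which the table has 1 column. Symbols for 15029 genes came from a table of gene names, and 0 sample columns were left unmapped. The m6A-IP libraries were not analysed here. No sequence is printed, since the tables used here hold none.

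Counts were fitted in R 4.3.3 with edgeR 4.0.16 (filterByExpr with a minimum count of 10, TMM, robust dispersions, glmQLFit and glmQLFTest, Benjamini-Hochberg adjustment over all tested genes). The study's methods give an unpaired test and name no test for the RNA-seq counts. The standard error (SE) was taken as the size of the log2 fold change over the root of the F statistic, and its 95% interval uses the test's degrees of freedom. Intervals therefore cover the spread between libraries. TPM was computed from counts and the listed exonic length. Log2 ratios and their tests used log2(CPM + 0.5), and the ratios printed without a log2 used CPM alone. The scripts were tested on simulated data. Alternatives were RLE factors, total counts, no filter, at least 10 counts in every library, no fold threshold, a pseudocount of 0.1, limma-voom (limma 3.58.1), DESeq2 1.42.0, a block for the replicate number and leaving out each library. No 2 libraries of the same group agreed within sampling noise (the lowest chi-square per gene was 51.8).

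The genes and lists were chosen with earlier results of these data known. Named genes are the 10 genes, TLR4, up to 3 genes of each pathway list at an unadjusted p below 0.05 with the largest fold changes, the 3 nearest profiles of each of the 10 genes at that p, and the most abundant markers. Hepatocyte, T or NK cell, endothelial, cholangiocyte or stellate cell and red blood cell or platelet markers had median log2 fold changes of -0.16, -0.26, -0.48, 0.22 and 1.30.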

Additional observations from a re-analysis of the deposited data

How the results depend on the processing

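Of 129 fold changes of the 10 genes under an alternative, 121 kept the direction and stayed short of the adjusted threshold, and 8 changed sign, none of them past an unadjusted p of 0.05; the cause was not tested. These were TIRAP without CON replicate 1 (-0.02) and LPS replicate 1 (-0.12), over a leave-one-out range of -0.12 to 0.46, IRAK2 without LPS replicate 3 (-0.050, over a range of -0.050 to 1.35), and IRAK3 with RLE factors (0.0044), with DESeq2 (0.0071), and without CON replicate 1 (0.15), LPS replicate 1 (0.11) or LPS replicate 2 (0.00094), over a range of -0.21 to 0.15. LY96 could not be tested with at least 10 counts in every library. The number of the 10 genes called stayed at 0 under every alternative. The number at an unadjusted p below 0.05 was 2, and 3 without a filter (CD14, IRAK1 and IRAK2), 1 with total counts, 1 with the replicate number as a block (CD14, without IRAK1), and 0 to 3 with 1 library left out (0 without CON replicate 1 or 2). The block changed no other call of the 10 genes. Same-numbered libraries deviated together with r of -0.239, 0.219 and 0.0289, and CON replicate 1 with LPS replicate 3 had an r of 0.22. With 3 libraries per group these values cannot decide whether same-numbered libraries share more than a number. Over all genes the block gave 42 higher and 9 lower calls in place of 7 and 0. The number of genes whose groups do not overlap, 1 higher and 1 lower, was 0 lower with RLE factors and with total counts, and 1 to 5 higher with 1 library left out. The ratio differences that changed sign were TICAM1 to MYD88 (-0.11 without CON replicate 1, -0.35 without LPS replicate 2), IRAK2 to IRAK1 (0.13 without LPS replicate 1) and IRAK3 to IRAK4 (0.036 without LPS replicate 1), over leave-one-out ranges of -0.35 to 0.23, -1.13 to 0.13 and -0.58 to 0.036. The other pathway genes at an unadjusted p below 0.05 were 6 higher and 3 lower, and 2 to 15 higher (2 without CON replicate 1, 15 without LPS replicate 2) and 2 to 7 lower (7 without LPS replicate 2) with 1 library left out. Scaling to total counts moved the median of all genes from 0.01 to -0.12, and that of the 10 genes from 0.29 to 0.17. Calls over all genes ranged from 0 (at least 10 counts in every library) to 982 (without LPS replicate 2), with 885 without a filter, 416 for DESeq2 and 2 for limma-voom.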
